A study of Rattus norvegicus with 18 samples.

Results

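A set of 9 genes grouped as activity-induced neuronal effectors was followed through a rat model of glutamate toxicity. They were Arc, Npas4, Homer1, Nptx1, Nptx2, Vgf, Scg2, Inhba and Pcsk1, chosen by name, and each was found as 1 of the 31463 rows of the count files. The products of most members carry out the work of the activity response at the synapse and in secretion, while Npas4 encodes a transcription factor. When glutamate opens NMDA receptors, calcium enters the neuron, calcium-dependent kinases reach the nucleus and phosphorylate factors such as CREB, and genes of this kind are transcribed. Some of their products tune the number of receptors at a synapse, others are stored in dense-core granules and released. The same receptors carry the calcium overload that kills neurons in excitotoxicity.

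RNA sequencing gave 18 libraries of primary neuroglial cultures, prepared from newborn Wistar rat cortex, and each of 6 groups held 3 of them. Cultures of all groups were 10 days in vitro, had received cytosine arabinoside to limit the division of glial cells, and gave their RNA 4 h after the model. Control was not exposed to glutamate. Glutamate received 100 µM glutamate, and Memantine received the NMDA receptor blocker memantine at 100 µM together with glutamate, although its label names memantine alone. Glutamate_vesicles, Glutamate_secret and Glutamate_BPC received material secreted by glial progenitor cells, which had been derived from human induced pluripotent stem cells, on the day before glutamate. Vesicles are named by the first label, whereas for the latter 2 groups the labels leave unclear which was given the protein fraction of the secretome and which all of it. The study states in general terms that its experiments were repeated on unrelated cultures, and a supplement names a covariate for the day, but the labels tie no library to a culture, an animal or a day. The p values therefore measure the spread between these libraries, which may be partly technical, and the day could be examined only through the replicate number.

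Total counts ranged from 8409574 to 17206354 per library, and ribosomal RNA took from 3.04% to 43.0% of them, with the highest share and the lowest total in Control 1. Levels are given in CPM, a gene's count scaled to a common library size after TMM normalisation, which corrects for differences in library composition. Neurons were present in every group. The summed level of 20 neuron markers, such as the tubulin Tubb3 and the synaptic vesicle fusion protein Snap25, ranged from 4070 to 7827 CPM in Control and from 1393 to 3061 CPM in Glutamate. It was 8313 CPM in Memantine 1, 3880 CPM in Memantine 2 and 1679 CPM in Memantine 3, so that 1 Memantine library stood with the Glutamate libraries. In Glutamate_vesicles, Glutamate_secret and Glutamate_BPC it lay between 1081 and 2868 CPM. In bulk RNA, fewer neurons and less RNA per neuron cannot be told apart. For the members and the main gene lists, values without Control 1 or Memantine 3 are given where these libraries moved them.

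A pair of patterns ran through the group. Vgf and Nptx2 had higher mean levels in the 4 groups given glutamate without memantine than in Control, and Vgf stood highest with the vesicle preparation. Memantine did not lower the mean of Vgf, which was 70.2 CPM in Memantine and 64.1 CPM in Glutamate. Nptx1 and Pcsk1 had lower levels under glutamate, together with the neuron markers, and high levels in Memantine 1 and 2. Homer1 followed Nptx1 and Pcsk1 between libraries, while Scg2, Arc and Inhba varied as much within groups as between them. Npas4 was close to the limit of counting.

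**Figure D1:**
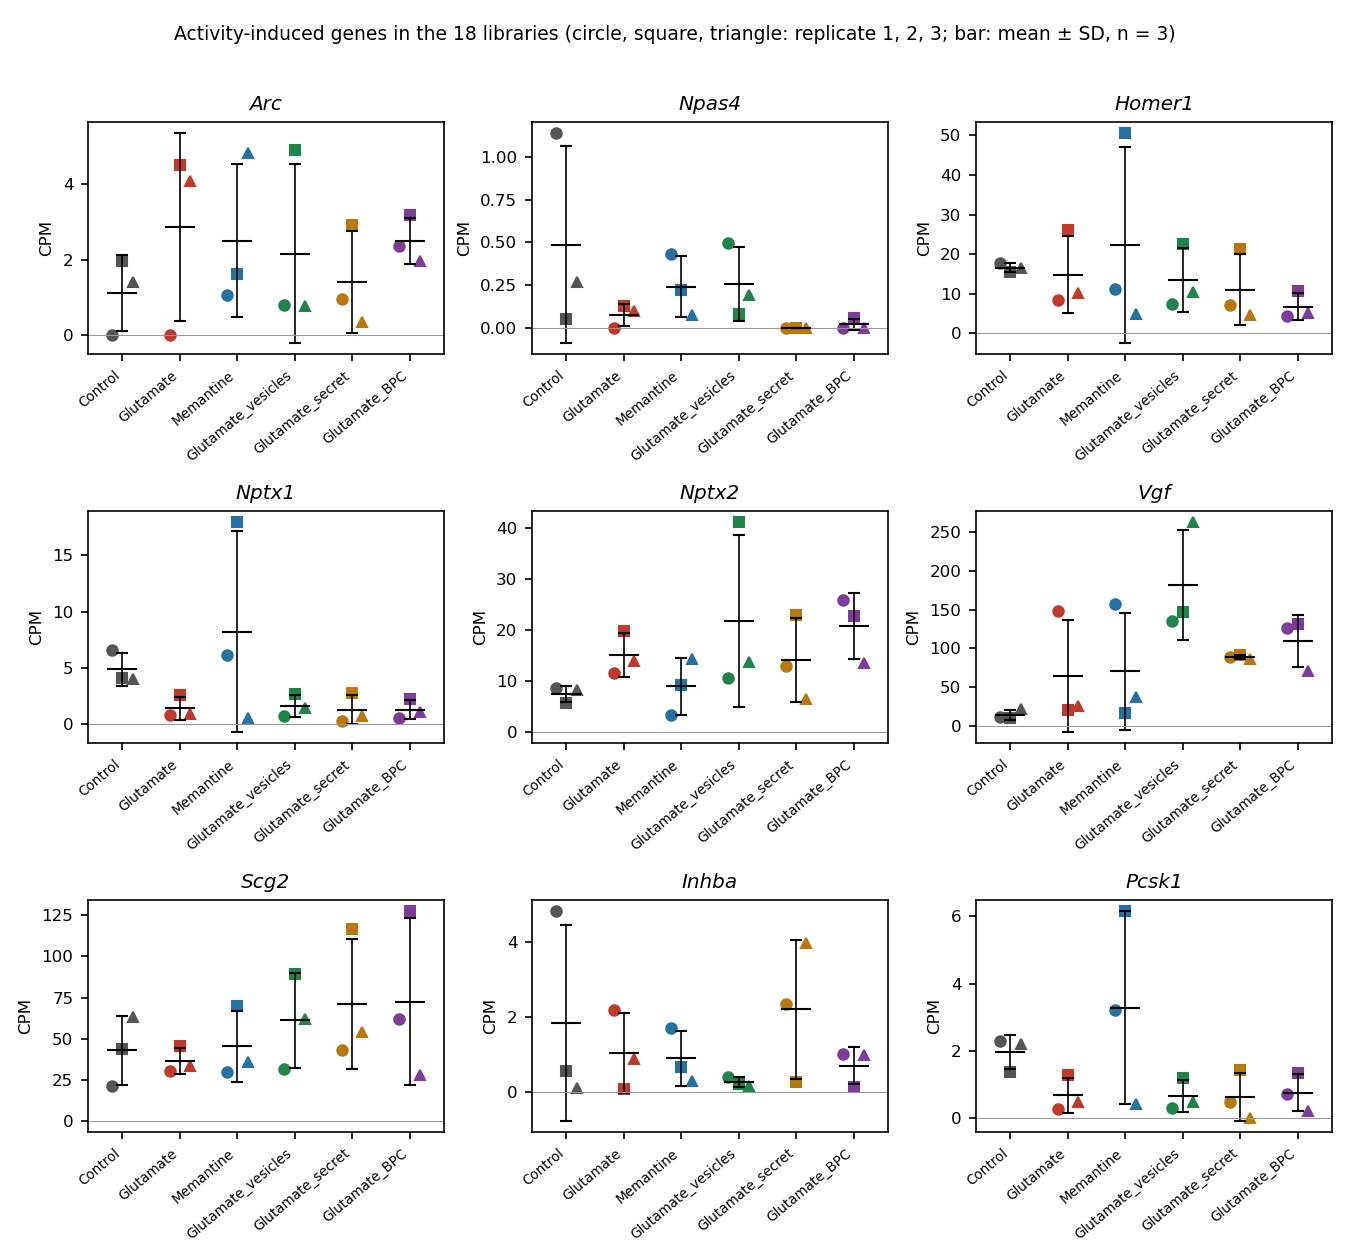
Level of each of the 9 genes in CPM (vertical axis, linear, own scale per panel) in the 6 groups, with 1 symbol per library and the mean ± SD (n = 3) as bars. Vgf lies between 70.8 and 263 CPM in the 9 libraries given a progenitor preparation and between 9.42 and 21.4 CPM in Control, whereas Nptx1 lies at or above 3.99 CPM in Control and in 2 of 3 Memantine libraries and at or below 2.74 CPM elsewhere.

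Vgf encodes a neurosecretory precursor that neurotrophins and activity induce, and whose peptides are released from dense-core granules. Its level was 10.9, 9.42 and 21.4 CPM in Control 1 to 3, and 148, 19.7 and 24.9 CPM in Glutamate 1 to 3. In Memantine it was 157, 17 and 37 CPM. Glutamate 1 and Memantine 1 were several times above the other libraries of their groups, and both groups overlapped with Control. Glutamate_vesicles gave 135, 147 and 263 CPM, Glutamate_secret 89.3, 91.5 and 85.6 CPM, and Glutamate_BPC 126, 131 and 70.8 CPM. Every one of these 9 libraries was above every Control library. The vesicle group had the highest mean, at 182 ± 71.0 CPM (SD, n = 3) against 88.8 ± 2.97 CPM in Glutamate_secret, 109 ± 33.4 CPM in Glutamate_BPC and 13.9 ± 6.56 CPM in Control. Differences between the preparations were not tested.

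Scg2 encodes secretogranin II, a granin of the same granules and the precursor of secretoneurin. Its level was 21.4, 43.8 and 63.5 CPM in Control, 30.6, 45.8 and 33.3 CPM in Glutamate, and 30.0, 70.1 and 36.1 CPM in Memantine. The other groups gave 31.8, 89.4 and 62.2 CPM in Glutamate_vesicles, 43.2, 116 and 54.1 CPM in Glutamate_secret, and 62.1, 128 and 27.8 CPM in Glutamate_BPC. All groups overlapped. The highest library of each group other than Control was replicate 2, and those libraries had the lowest ribosomal RNA share of their groups; the part of that share in these levels was not tested.

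Pcsk1 encodes prohormone convertase 1, which cuts precursors such as VGF inside the granule. Its level was 2.28, 1.37 and 2.21 CPM in Control and 0.258, 1.27 and 0.486 CPM in Glutamate. In Memantine it was 3.22, 6.17 and 0.431 CPM. Every Glutamate library was below every Control library, Memantine 1 and 2 were above all of them, and Memantine 3 was as low as Glutamate. The libraries given a preparation lay between 0 and 1.42 CPM, on counts from 0 to 32.

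Vgf, Scg2 and the pentraxin gene Nptx2 hold in their promoters the letters that CREB recognises, and these stretches are shown because they are the members with such letters. The cyclic AMP response element (CRE) was searched as TGACGTCA and its half-site as TGACG, on both strands, in the RefSeq windows of build GRCr8 from 250 bases before to 50 bases after each gene start. The following are the 250 bases before the start, 5′ to 3′ along the gene, with the match in capitals. They lie on the minus strand at chr12:25277021-25277270 (Vgf), chr9:88256867-88257116 (Scg2) and chr12:15162046-15162295 (Nptx2).
Vgf: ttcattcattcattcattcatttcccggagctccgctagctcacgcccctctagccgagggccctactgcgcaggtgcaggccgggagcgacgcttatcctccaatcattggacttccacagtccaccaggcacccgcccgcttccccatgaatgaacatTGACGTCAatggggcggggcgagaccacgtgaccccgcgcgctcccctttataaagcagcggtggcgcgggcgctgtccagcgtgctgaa
Scg2: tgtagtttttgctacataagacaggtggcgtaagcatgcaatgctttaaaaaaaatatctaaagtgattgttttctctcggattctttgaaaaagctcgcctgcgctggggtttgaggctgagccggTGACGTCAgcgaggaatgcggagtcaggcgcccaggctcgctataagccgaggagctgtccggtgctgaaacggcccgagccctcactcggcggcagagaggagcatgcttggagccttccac
Nptx2: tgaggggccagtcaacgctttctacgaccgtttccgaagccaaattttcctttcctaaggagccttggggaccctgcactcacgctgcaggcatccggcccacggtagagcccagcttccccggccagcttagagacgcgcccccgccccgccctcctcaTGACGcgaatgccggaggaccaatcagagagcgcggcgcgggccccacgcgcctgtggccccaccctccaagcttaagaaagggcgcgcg

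The full CRE begins at position -90 from the start of Vgf and at position -123 from that of Scg2, and the half-site of Nptx2 begins at -90. The full element was found in 2 of the 6 members with a window, and in 1.83% of all 33469 promoters. The half-site, which every CRE also contains, was found in Vgf, Scg2 and Nptx2 and in 21.2% of all promoters. Homer1 and Inhba held the NPAS4 core TCGTG, as did 17% of promoters. The AP-1 site TGANTCA, present in 7.33% of promoters, and the CArG box of serum response factor, present in 1.64%, were in 0 of the 6 windows. The windows of Arc, Nptx1 and Pcsk1 were not analysed here. These matches describe the letters only, and binding was not measured.

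Nptx1 and Nptx2 encode neuronal pentraxins, secreted proteins that gather AMPA receptors at excitatory synapses, and Nptx2, also named Narp, is the one induced by activity. The level of Nptx2 was 8.57, 5.69 and 8.24 CPM in Control and 11.5, 19.9 and 14 CPM in Glutamate. In Memantine it was 3.33, 9.17 and 14.4 CPM. Glutamate did not overlap with Control, and Memantine 3 again stood with the Glutamate libraries. Nptx2 was 10.6, 41.2 and 13.8 CPM in Glutamate_vesicles, 12.9, 23.0 and 6.52 CPM in Glutamate_secret, and 25.9, 22.8 and 13.6 CPM in Glutamate_BPC. The vesicle and BPC groups lay above Control in every library, and Glutamate_secret 3 lay within it.

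The level of Nptx1 went the other way. It was 6.57, 4.07 and 3.99 CPM in Control, 0.775, 2.60 and 0.876 CPM in Glutamate, and 6.12, 18 and 0.503 CPM in Memantine. Glutamate_vesicles gave 0.698, 2.65 and 1.41 CPM, Glutamate_secret 0.315, 2.74 and 0.724 CPM, and Glutamate_BPC 0.543, 2.19 and 1.08 CPM. All 12 libraries given glutamate without memantine were below every Control library. Nptx1 rested on few counts there, from 2 to 66 per library, and on 7 in Memantine 3. Memantine 2 was the highest of the 18, and Memantine 3 was below all but 1 of them.

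Homer1 encodes a scaffold that ties group I metabotropic glutamate receptors to their calcium stores, and activity induces a short form that loosens this tie. Counts per gene do not separate the forms. Its level was 17.7, 15.5 and 16.5 CPM in Control, 8.27, 26.0 and 10.1 CPM in Glutamate, and 11.3, 50.7 and 4.81 CPM in Memantine. In the other groups it was 7.38, 22.6 and 10.45 CPM with vesicles, 7.09, 21.2 and 4.53 CPM in Glutamate_secret, and 4.44, 10.7 and 5.10 CPM in Glutamate_BPC. Replicate 2 was the highest library in every group except Control. Glutamate_BPC was the only group with all libraries below Control.

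Arc encodes a protein that drives the removal of AMPA receptors from the synapse. Its level was 0, 1.96 and 1.40 CPM in Control, 0, 4.51 and 4.09 CPM in Glutamate, and 1.07, 1.61 and 4.81 CPM in Memantine. It was 0.798, 4.89 and 0.778 CPM in Glutamate_vesicles, 0.945, 2.92 and 0.362 CPM in Glutamate_secret, and 2.35, 3.17 and 1.95 CPM in Glutamate_BPC. Every group overlapped with Control, although Glutamate_BPC 1 and 2 lay above all of its libraries. Arc had no count in Control 1 and Glutamate 1, where 3 counts would be the limit that an empty row allows, and at most 122 counts elsewhere.

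Npas4 encodes a transcription factor found mainly in neurons, which calcium entry induces within minutes and which is lost again soon after. It had 34 counts over all 18 libraries and at most 5 in a library. Counts were 4, 1 and 5 in Control, 0, 2 and 1 in Glutamate, 4, 4 and 1 in Memantine, and 5, 2 and 4 in Glutamate_vesicles. Glutamate_secret had 0 counts in each library and Glutamate_BPC 1 in all. A count of 0 allows up to 3 counts in a library, so that most single libraries could not be told from one without Npas4, and no fold is given. The group sums ran from 0 in Glutamate_secret to 11 in Glutamate_vesicles, with 10 in Control. Npas4 was the 1 member that the filter on low counts removed, so that 8 of 9 were tested.

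Inhba encodes the βA subunit that forms activin A, a secreted ligand of the transforming growth factor β family, which in hippocampal neurons belongs to a survival programme driven by synaptic activity. Its level was 4.85, 0.540 and 0.108 CPM in Control, 2.20, 0.0635 and 0.876 CPM in Glutamate, and 1.72, 0.667 and 0.287 CPM in Memantine. It was 0.399, 0.201 and 0.146 CPM with vesicles, 2.36, 0.265 and 3.98 CPM in Glutamate_secret, and 0.996, 0.115 and 0.976 CPM in Glutamate_BPC. No group stood apart from Control. Counts ranged from 1 to 22 per library, and the level was highest in Control 1, the library with the most ribosomal RNA.

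Glutamate was set against Control to see the response to the model itself. Vgf was 4.58-fold higher (log2 fold change 2.20, SE 0.80), and Nptx2 was 2.03-fold higher (1.02, SE 0.60). Nptx1 was lower, with a log2 fold change of -1.73 (SE 1.00), and Pcsk1 had -1.47 (SE 1.05). Values for the others were 1.24 (SE 1.20) for Arc, -0.16 (SE 0.77) for Homer1, -0.23 (SE 0.58) for Scg2 and -0.69 (SE 1.34) for Inhba. At an adjusted p below 0.05, edgeR's quasi-likelihood test called 0 of 8 members and 0% of 14398 genes. Its likelihood-ratio test and DESeq2 also called 0 members, beside 0.313% and 1.63% of genes. A looser criterion asked for a fold above 1.5 and a p below 0.05 before adjustment, and was met by 1 member and by 8.07% of all genes. The methods of the study name a false discovery rate, while its results name a p value with a fold and do not say whether that p was adjusted. That member was Vgf (adjusted p = 0.425 in edgeR). It no longer met the criterion without Glutamate 1, where its log2 fold change was 0.67 (SE 0.68), or without Control 2, where it was 1.98 (SE 0.94).

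Memantine against Glutamate addressed the blockade of NMDA receptors. Nptx1 was 5.67-fold higher in Memantine (log2 fold change 2.5, SE 1.01), Pcsk1 was 4.68-fold higher (2.23, SE 1.05), and Nptx2 had a log2 fold change of -0.75 (SE 0.59). Vgf had 0.13 (SE 0.76). Homer1 had 0.59 (SE 0.77), Scg2 0.31 (SE 0.58), Arc -0.21 (SE 1.17) and Inhba -0.21 (SE 1.31). In edgeR, 0 members and 0% of genes had an adjusted p below 0.05. The likelihood-ratio test and DESeq2 also called 0 members, beside 0% and 0.0139% of genes. The criterion was met by Nptx1 (adjusted p = 0.78 in edgeR) and by 5.06% of genes. With the replicate number as a block it was met by Nptx1 and Pcsk1, with log2 fold changes of 2.29 (SE 0.77) and 2.06 (SE 0.82), and by 7.96% of genes.

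The Memantine group rested on libraries that differed. Without Memantine 3, Nptx1 had a log2 fold change of 3.04 (SE 0.87, adjusted p = 0.103 in edgeR) and Pcsk1 of 2.74 (SE 1.01, adjusted p = 0.223 in edgeR) against Glutamate. Both met the criterion there, as did 13.6% of genes, against 5.06% with all libraries. Without Memantine 2, that of Nptx1 was 1.18 (SE 0.99), without Glutamate 1 it was 2.22 (SE 1.18) and without Glutamate 3 it was 2.25 (SE 1.20), and in each of these the criterion was not met. For Vgf the value was -1.25 (SE 0.74) without Memantine 1 and -0.25 (SE 0.82) without Glutamate 3, and it was 1.65 (SE 0.73) without Glutamate 1, where the criterion was met. Against Control, 1 member met the criterion in Memantine, again Vgf (log2 fold change 2.33, SE 0.80, adjusted p = 1 in edgeR), beside 1.12% of genes. The quasi-likelihood test, the likelihood-ratio test and DESeq2 called 0 members there, and 0% of genes were called by the first. Without Memantine 1 the value was 0.95 (SE 0.71), which did not meet the criterion.

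The preparations were compared with Glutamate to see what they added to the response. Vgf had log2 fold changes of 1.51 (SE 0.78) with vesicles, 0.47 (SE 0.76) in Glutamate_secret and 0.77 (SE 0.76) in Glutamate_BPC. Those of Scg2 were 0.74 (SE 0.58), 0.96 (SE 0.58) and 0.99 (SE 0.58) in the same order. Inhba had -2.05 (SE 1.39), 1.07 (SE 1.31) and -0.57 (SE 1.32), on few counts. In edgeR, its likelihood-ratio test and DESeq2, 0 members were called in any of these comparisons, and 0 met the criterion. Among all genes the quasi-likelihood test called 0% in each, and the criterion was met by 1.08% with vesicles, 0.674% in Glutamate_secret and 1.06% in Glutamate_BPC. DESeq2 called 0.0208%, 0% and 0.00695% of genes in the same order, and the likelihood-ratio test 0.0139%, 0% and 0%. Vgf against Glutamate depended on Glutamate 1. Without that library it met the criterion in all 3 comparisons, with log2 fold changes of 3.03 with vesicles (SE 0.78, adjusted p = 1 in edgeR) and 2.29 in Glutamate_BPC (SE 0.75, adjusted p = 0.901 in edgeR). With vesicles it also met it without Memantine 1 or Memantine 2, at 1.51 in both (SE 0.65 and 0.69). Scg2 met it in Glutamate_BPC without Glutamate_BPC 3. With the replicate number as a block, the criterion was met in Glutamate_BPC by Scg2, at 0.89 (SE 0.40), by Homer1, at -1.06 (SE 0.47), and by 3.34% of genes.

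The preparations were also compared with Control. These comparisons share the Control libraries. Vgf was 13.0-fold higher with vesicles (log2 fold change 3.70, SE 0.85, adjusted p = 0.162 in edgeR), 6.36-fold in Glutamate_secret (2.67, SE 0.81, adjusted p = 0.201) and 7.83-fold in Glutamate_BPC (2.97, SE 0.82, adjusted p = 0.295). Nptx2 was 2.93-fold higher with vesicles (1.55, SE 0.61) and 2.78-fold higher in Glutamate_BPC (1.47, SE 0.61). In Glutamate_secret its log2 fold change was 0.93 (SE 0.60). Nptx1 had -1.58 (SE 0.98), -1.84 (SE 1.00) and -1.90 (SE 1.00), and Pcsk1 -1.50 (SE 1.03), -1.46 (SE 1.04) and -1.31 (SE 1.03), in the order vesicles, Glutamate_secret and Glutamate_BPC. Homer1 had -1.29 (SE 0.78) in Glutamate_BPC, and Inhba had -2.75 (SE 1.43) with vesicles, where the groups overlapped.

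By the quasi-likelihood test 0 members were called against Control in the vesicle group, where 0.0139% of genes were, and 0 in Glutamate_secret and Glutamate_BPC, where 0% were. The criterion was met by Vgf and Nptx2 with vesicles (11.6% of genes), by Vgf in Glutamate_secret (11.7%) and by Vgf and Nptx2 in Glutamate_BPC (11.3%). DESeq2 called Vgf in each of the 3 comparisons, beside 3.4% of genes with vesicles, 3.08% in Glutamate_secret and 1.78% in Glutamate_BPC. The likelihood-ratio test called Vgf with vesicles, beside 1.11% of genes. With the replicate number as a block, Vgf was called with vesicles (adjusted p = 0.0245 in edgeR), as were 3.74% of all genes, and Nptx1, Nptx2 and Pcsk1 also met the criterion there, as did 19.6% of genes. The Nptx2 result with vesicles depended on Glutamate_vesicles 2, without which the log2 fold change was 0.70 (SE 0.58), and on Control 2, without which it was 1.38 (SE 0.71), and in neither case was the criterion met. In Glutamate_BPC, Nptx2 did not meet it without Control 2 (1.30, SE 0.71), Control 3 (1.55, SE 0.73), Glutamate_BPC 1 (1.28, SE 0.68) or Glutamate_BPC 2 (1.40, SE 0.68). Vgf met the criterion against Control in these 3 groups whichever 1 of the 18 libraries was left out.

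**Figure D2:**
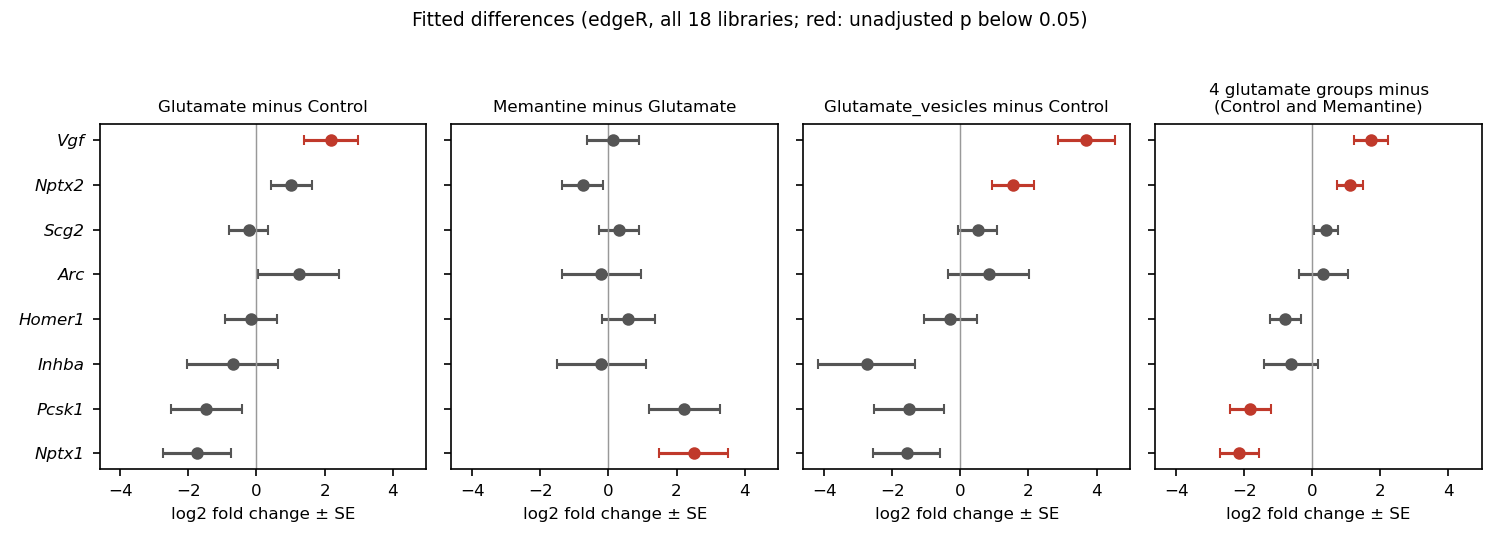
Fitted log2 fold change ± SE (horizontal axis) of the 8 genes tested, in 4 comparisons of the fit to all 18 libraries, with red for an unadjusted p below 0.05. Vgf stands at 2.20 in Glutamate and 3.70 in Glutamate_vesicles against Control, and Nptx1 and Pcsk1 stand below 0 against Control and above 0 in Memantine against Glutamate.

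Glutamate with NMDA receptors open was examined across the 4 groups given glutamate without memantine, set together against Control and Memantine. This contrast was chosen with earlier results of these data known. Nptx1 fell by 2.15 on the log2 scale (SE 0.57, adjusted p = 0.0311 in edgeR), the 1 member called, beside 7.28% of all genes. With the replicate number as a block, Nptx1 (adjusted p = 0.00277), Pcsk1 (adjusted p = 0.00771) and Vgf (adjusted p = 0.00924) were called in edgeR, and so were 16.6% of all genes. Vgf had 1.72 (SE 0.51, adjusted p = 0.0519 in edgeR), Nptx2 1.11 (SE 0.38, adjusted p = 0.0988) and Pcsk1 -1.82 (SE 0.60, adjusted p = 0.0823). These 4 members met the criterion, as did 17.3% of genes. Homer1 had -0.80 (SE 0.46), Scg2 0.40 (SE 0.36), Arc 0.33 (SE 0.73) and Inhba -0.63 (SE 0.80). The ranges overlapped for every member, and Memantine 3 lay low for Nptx1, Pcsk1 and Homer1.

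The call of Nptx1 held when Glutamate 2, Memantine 3, Glutamate_vesicles 2, Glutamate_secret 1, Glutamate_secret 2 or Glutamate_BPC 2 was left out. It was lost without any 1 of the other 12 libraries, with adjusted p from 0.0515 to 0.197 in edgeR, the latter without Memantine 2, where the log2 fold change was -1.48. Without Control 1 the adjusted p was 0.0664. Without Memantine 3, edgeR called Nptx1 (-2.40, adjusted p = 0.0038), Nptx2 (1.39, adjusted p = 0.0328) and Pcsk1 (-2.05, adjusted p = 0.0233), as well as 15.7% of all genes, and the neuron markers called numbered 17 of 20 in place of 14. Without Control 1 they numbered 11. The F test across the 6 groups called 0 members and 0.00695% of genes in edgeR. DESeq2 and the likelihood-ratio test each called Vgf across the 6 groups, beside 4.98% and 4.08% of genes. In edgeR the F test gave an unadjusted p below 0.05 for Vgf (adjusted p = 0.344) and Nptx1 (adjusted p = 0.559), and for 7.75% of genes.

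Neuron markers moved with these results. Against Control, 20 of 20 had lower levels in Glutamate, 12 by the criterion, with a median log2 fold change of -1.49 beside 0.08 for all genes. Without Control 1 they were 8, with a median of -0.96. In Memantine against Glutamate 9 of 20 were higher by the criterion and 0 were called, with a median of 1.26. Without Memantine 3 they were 13, of which 6 were called, beside 1.8% of all genes, with a median of 1.65. Each member was therefore also expressed relative to the mean log2 CPM of these markers in the same library. On this scale Nptx1 differed by -0.38 and Pcsk1 by -0.08 between Glutamate and Control, in place of -1.83 and -1.53 on the plain log2 CPM scale, and the libraries overlapped. Vgf differed by 3.12 in place of 1.67, and Nptx2 by 2.43 in place of 0.98. For both, every Glutamate library was above every Control library, which in plain CPM held for Nptx2 but not for Vgf. The marker mean itself was 6.835 in Control and 5.385 in Glutamate, so that this scale raised every gene in Glutamate by the same amount. No test was made on this scale, and the share of all genes whose groups separate, on it or in plain CPM, was not counted.

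Relative to the neuron markers, Vgf ran from -3.74 to -1.95 in Control, from -0.81 to 1.32 in Glutamate and from 1.56 to 3.22 with vesicles, 3 ranges without overlap. In plain CPM, Glutamate overlapped with Control and with vesicles. Relative to the markers, Vgf ran from 0.71 to 1.89 in Glutamate_secret and from 0.85 to 1.80 in Glutamate_BPC, both overlapping with Glutamate. Nptx2 ran from -4.38 to -3.32 in Control, from -2.35 to -0.80 in Glutamate and from -5.53 to -1.07 in Memantine. The differences from Control to Glutamate were 2.31 for Arc, 1.10 for Homer1, 1.33 for Scg2 and 1.18 for Inhba, and the groups overlapped for each of these. In plain log2 CPM they were 0.864, -0.348, -0.117 and -0.265 in the same order. Whether the lower neuronal RNA contributed to the levels of Nptx1 and Pcsk1 was not tested.

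Other cells of the culture can also hold such transcripts, and their markers were read beside the results. In Glutamate against Control 0 of 10 astrocyte, 1 of 10 microglia and 1 of 10 oligodendrocyte lineage markers were higher by the criterion, and none of these 30 was lower. Without Control 1, 0 of them were higher. Astrocyte markers summed to 4293 to 7550 CPM in Control and 7073 to 13380 CPM in Glutamate, and microglia markers to 41.7 to 133 CPM and 117 to 382 CPM. Oligodendrocyte lineage markers summed to 556 to 952 CPM in Control, 1257 to 1316 CPM in Glutamate, 1315 to 1718 CPM with vesicles, 1041 to 1604 CPM in Glutamate_secret and 1048 to 1443 CPM in Glutamate_BPC. Fibroblast and mural cell markers summed to 58.5 to 171 CPM in Control, 63.4 to 405 CPM in Glutamate and 280 to 815 CPM in the 3 groups with a preparation. They were highest in Glutamate_secret, at 650 ± 257 CPM (SD, n = 3), and summed to 49.6 to 402 CPM in Memantine. Dcn, Lum, Acta2 and Rgs5 of that list, and Flt1, Kdr, Cdh5, Tek, Emcn and Slco1a4 of the endothelial markers, did not exceed 1.09 CPM in any library. The endothelial markers summed to at most 5.42 CPM. The part of these cells in the levels of the members was not tested.

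**Figure D3:**
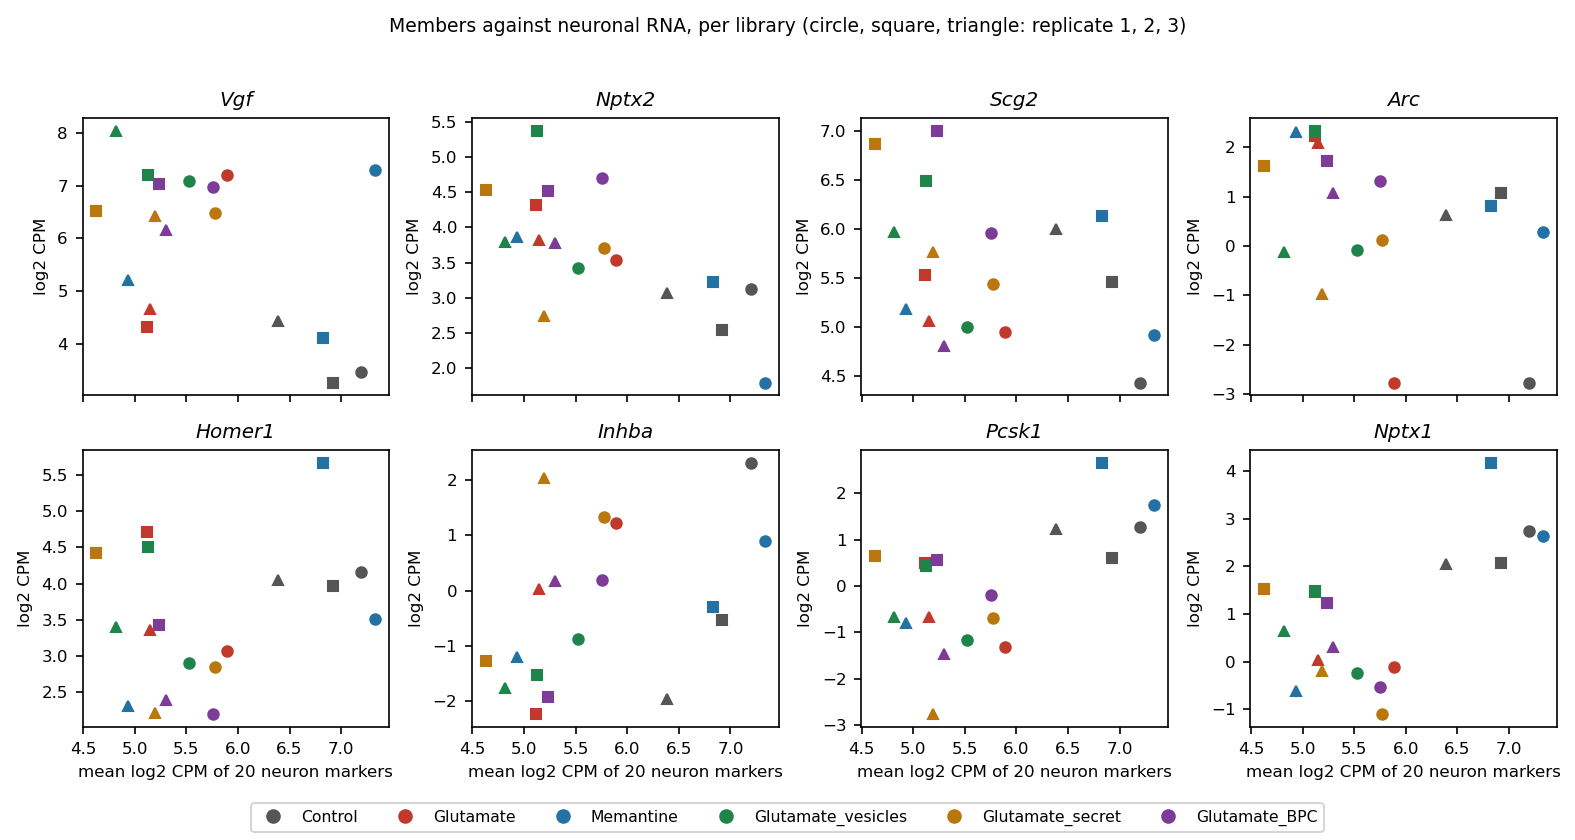
Log2 CPM of each of the 8 genes tested (vertical axis) against the mean log2 CPM of 20 neuron markers (horizontal axis) in the 18 libraries, coloured by group. Nptx1 is highest in the 5 libraries with a marker mean above 6, which are the Control libraries and Memantine 1 and 2, whereas Nptx2 runs the other way (r = -0.70) and the Control libraries are among the lowest for Vgf.

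Other genes of the pathways in which the members act were counted from lists. Of all genes, 8.07% met the criterion in Glutamate against Control and 5.06% in Memantine against Glutamate, counting both directions. The median log2 fold changes of all genes were 0.085 and -0.02 in the same order. Without Memantine 3 the shares were 9.66% and 13.6%, and 0.438% and 1.8% were called. In the contrast of 4 groups 17.3% met the criterion and 7.28% were called. Of 48 further activity-regulated genes 45 were tested. In Glutamate against Control 16 were higher and 6 lower by the criterion, with a median log2 fold change of 0.59, and 0 were called. Without Control 1 these were 14 and 3. Among the higher were Trib1, a pseudokinase of mitogen signalling (1.75, SE 0.35), the transcription factor gene Fos (2.13, SE 0.44) and Maff, which encodes a small basic leucine zipper factor (2.92, SE 0.81). In Memantine against Glutamate 4 were higher and 0 lower (6 and 3 without Memantine 3, where 2 were called higher and 1 lower). The 4 included Plk2, a kinase that weakens overactive synapses (2.03, SE 0.63), Lingo1, a membrane protein of neurons (2.03, SE 0.51), and Ptgs2, the inducible cyclooxygenase (3.54, SE 1.26). The value of Ptgs2 rested on low levels, with means of 0.118 CPM in Glutamate and 1.47 CPM in Memantine. In the contrast of 4 groups with Control and Memantine, 14 were higher and 8 lower by the criterion. At an adjusted p below 0.05, 5 were called higher and 3 lower. These became 11 and 5 without Memantine 3 and 3 and 3 without Control 1. Trib1 was among those called higher, while Plk2 fell by 2.12 and Lingo1 fell by 1.57. Like Nptx1, Plk2 and Lingo1 were low under glutamate and high in Control and Memantine, with means of 11.1 and 29.1 CPM in Glutamate against 52.7 and 96.5 CPM in Control.

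At the synapse, 21 of 22 partners of Arc, Homer1 and the pentraxins were tested. Against Control, 7 were lower in Glutamate by the criterion and 0 higher (median log2 fold change -1.34), and 9 were higher in Memantine than in Glutamate (median 1.11), with 0 called. Without Memantine 3, 12 were higher there and 5 were called, beside 1.8% of all genes called. In that fit 11 in place of 7 were lower in Glutamate than in Control. Camk2b, a subunit of the calcium/calmodulin-dependent kinase that Arc binds, was at 375 ± 73.4 CPM in Control, 116 ± 40.2 CPM in Glutamate and 344 ± 235 CPM in Memantine (SD, n = 3). Nsg1, a neuronal endosome protein, had -1.69 (SE 0.46) and Dlgap1, which links PSD-95 to the SHANK scaffold, -1.21 (SE 0.42) in Glutamate. Dnm1, the dynamin of synaptic endocytosis, had 2.40 (SE 0.71) and Nptxr, the pentraxin receptor that assembles with NPTX1 and NPTX2, 1.64 (SE 0.55) in Memantine against Glutamate. The level of Nptxr was 229.9 ± 108 CPM in Control, 84.1 ± 13.1 CPM in Glutamate and 267 ± 163 CPM in Glutamate_vesicles, where that of Nptx1 was low in all libraries. In the contrast of 4 groups, 11 of the 21 were called lower and 0 higher, and by the criterion 15 were lower and 0 higher.

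Of the genes of granules and prohormone processing 18 of 20 were tested. Among them, 7 were lower and 0 higher in Glutamate than in Control by the criterion, and 5 were higher in Memantine than in Glutamate. That number was 9 with the replicate number as a block. Chgb, which encodes the granin chromogranin B, had -1.48 (SE 0.49), Ptprn2, a granule membrane protein, -1.70 (SE 0.61), and the dynorphin precursor gene Pdyn -2.59 (SE 0.91) in Glutamate against Control. Levels of Pdyn were low, with means of 0.312 CPM in Glutamate and 1.95 CPM in Control. In Memantine against Glutamate, Cadps, which primes granules for release, had 1.45 (SE 0.61). Cadps, Chga, Chgb, Ptprn2, Vip and Pcsk2 were called lower in the contrast of 4 groups, in which 0 of the 18 were called higher. By the criterion 8 were lower there and 0 higher.

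Of the activin pathway 14 of 16 genes were tested, and 0 met the criterion in Glutamate against Control or in Memantine against Glutamate, although 1 was lower in the former without Control 1. Fstl3, which encodes an extracellular inhibitor of activin, had 1.54 (SE 0.85) in Glutamate against Control and rose by 1.86 on the log2 scale (SE 0.54, adjusted p = 0.0466 in edgeR) in the contrast of 4 groups. This call held without Glutamate 2, Memantine 3, Glutamate_vesicles 2 or Glutamate_secret 2 and was lost without any other library, with adjusted p from 0.0526 to 0.127 in edgeR and 0.0833 without Control 1. It was also lost without the filter on low counts (adjusted p = 0.058 in edgeR). Inha, the α subunit of inhibin, had -0.78 (SE 0.59) and the receptor gene Acvr1b -0.96 (SE 0.74) in Glutamate. Acvr1, another receptor gene, had 0.80 (SE 0.80) in Memantine. Among 11 partners of NPAS4, 0 met the criterion in Glutamate against Control, and 1 did without Memantine 3. Crtc1, a coactivator of CREB, had 1.04 (SE 0.47) in Memantine against Glutamate, Srf had 0.77 (SE 0.37) in Glutamate, and Mef2c, at 1550 ± 2477 CPM in Control and thus unequal between its libraries, had -2.04 (SE 1.40). For Mef2d the value in Memantine was 0.87 (SE 0.79).

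Across the 18 libraries the members formed a tight set and a loose remainder. Pearson's r of log2 CPM was 0.87 between Nptx1 and Pcsk1, 0.84 between Homer1 and Nptx1, and 0.80 between Homer1 and Pcsk1. After centring within groups these values were 0.79, 0.91 and 0.89. Nptx2 and Scg2 had r = 0.53 and Arc and Inhba r = -0.70. Vgf had r between -0.47 and 0.29 with the others. The libraries also share their depth and quality, and r with the log2 ribosomal RNA share was 0.78 for Inhba, -0.74 for Scg2, -0.58 for Arc and -0.57 for Homer1, against -0.04 for Vgf. With the neuron marker mean it was 0.61 for Nptx1, 0.59 for Pcsk1 and -0.70 for Nptx2. These values are descriptions without a test.

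**Figure D4:**
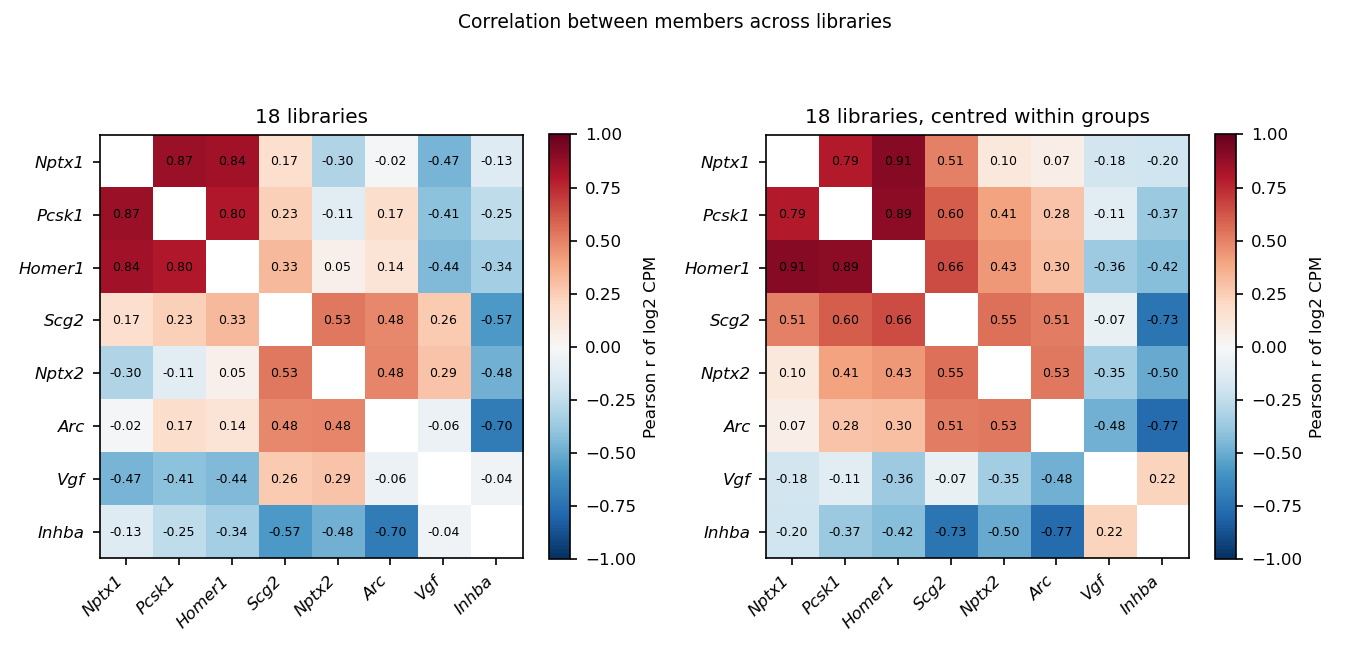
Pearson's r of log2 CPM between the 8 genes tested over the 18 libraries (left) and over the same libraries after centring within groups (right), on a colour scale from -1 to 1. Nptx1, Pcsk1 and Homer1 form a block between 0.79 and 0.91 in both panels, and Inhba is negative with Arc and Scg2.

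The genes closest to each member were sought among 11880 genes by r over the 18 libraries. Nptx1 was closest to Dock3 (r = 0.96) and Sgip1 (0.95), Homer1 to Wdfy3 (0.96) and Kdm2a (0.96), and Pcsk1 to LOC691170 (0.94) and Fnbp1l (0.93). Vgf was closest to the phosphate transporter gene Slc20a1 (0.94) and to Gldn (0.92). For Nptx2 they were Pdk3 (0.86) and Pvr (0.86), for Scg2 Apcdd1 (0.87) and Cav1 (0.84), for Arc Adgre1 (0.89) and Slc41a1 (0.89), and for Inhba Adgrl3 (0.93) and Nfrkb (0.93).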

How the data were processed

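Expected counts per gene, meaning estimated read counts that need not be whole, were deposited for each of the 18 libraries. The authors' stated steps were trimming (Trimmomatic, Cutadapt), Salmon quantification on Ensembl rat transcripts, for which genome sequence served as decoy, and summing to genes by tximport, and the deposited values carry no scaling between libraries. The labels and the paper name different sequencing platforms, and strand of counting was not given in the sources used here.

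Counts were rounded to whole numbers; the design had been written for counts. Genes were filtered with filterByExpr (minimum count 10, minimum total 15), which left 14398, and tested with edgeR 4.0.16 in R 4.3.3 (TMM, 1 mean per group over all 18 libraries, two-sided quasi-likelihood test, Benjamini-Hochberg adjustment over all genes). SE values come from the F statistic, and log2 CPM used a prior count of 2. DESeq2 1.42.0 and the likelihood-ratio test of edgeR, which the study used, were alternatives. Scripts were tested on simulated data. Differences are the first group minus the second.

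The members and lists were chosen with earlier results of these data known. All members were named, together with the 3 genes of smallest p of each list in Glutamate against Control and in Memantine against Glutamate, and the 2 genes of highest r per member among genes whose mean log2 CPM reached 1; 1 gene that this rule names is not reported here. Same-numbered libraries were described as paired where every correlation of their deviations from the group means exceeded 0.1. This held for Memantine, Glutamate_secret and Glutamate_BPC against Glutamate and for Glutamate_vesicles against Control. It did not hold for Glutamate_vesicles against Glutamate or for the other groups against Control. The check did not set the fits. The main fit used no block, and the block was applied to all groups at once. No 2 libraries held identical values. Promoter windows and motif letters come from RefSeq (GRCr8), another build than that of the counts, and were matched by symbol.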

Additional observations from a re-analysis of the deposited data

How the results depend on the processing

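Directions and calls were recomputed under other settings. With the replicate number as a block, members meeting the criterion numbered 3 in Glutamate against Control (Nptx1, Vgf and Pcsk1, against 1 without it), 2 in Memantine and 2 in Glutamate_BPC against Glutamate, 1 in Glutamate_vesicles against Glutamate (Vgf), and 4, 3 and 5 in Glutamate_vesicles, Glutamate_secret and Glutamate_BPC against Control. Vgf was then called in each of the last 3, and Nptx1, Pcsk1 and Vgf, 3 members, in the contrast of 4 groups. However, replicate 3 of Glutamate, Glutamate_secret and Glutamate_BPC did not deviate together with replicate 3 of Control (r = -0.117, -0.454 and -0.259). The shares of all genes rose too. Those meeting the criterion were 14.7% in Glutamate against Control and 19.6%, 22.1% and 21.4% in the preparations against Control. Against Glutamate they were 7.96% in Memantine, 3.34% in Glutamate_BPC and 3.19% with vesicles. Those called were 3.74%, 4.86% and 1.74% in the preparations against Control and 16.6% in the contrast of 4 groups. The block changed no other call. With the ribosomal RNA share as a covariate the numbers were 2 in Glutamate against Control (15.4% of all genes) and 1 in Glutamate_BPC against Glutamate (3.71%). They were 3 in Glutamate_secret (25%) and 5 in Glutamate_BPC (18.8%) against Control, and 4 in the F test (17.8%). In the contrast of 4 groups 4 were called, beside 14.8% of all genes. With the block and that share together the numbers were 2 in Glutamate against Control (18.8% of all genes). They were 1 and 2 in Glutamate_vesicles and Glutamate_BPC against Glutamate (2.3% and 5.6%). Against Control they were 4, 4 and 6 in the 3 preparations (19%, 29.4% and 25.8%). Vgf was called in each of these 3, beside 4.68%, 10.3% and 7.79% of all genes. In the F test 1 member was called (6.99% of all genes), and 4 were in the contrast of 4 groups, beside 22.7% of all genes.

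DESeq2 called Vgf in all 3 preparations against Control (3.4%, 3.08% and 1.78% of all genes) and in its own likelihood-ratio test across the 6 groups (4.98%). It called 4 members in the contrast of 4 groups, beside 12.5% of all genes, while 2 met the criterion in Memantine against Glutamate (6.45%). The likelihood-ratio test called 1 member (Vgf) with vesicles against Control (1.11% of all genes) and across the 6 groups (4.08%). It called 3 in the contrast of 4 groups, beside 10.4% of all genes, and 2 met the criterion in Memantine against Glutamate (5.59%). RLE size factors and no filter on low counts each gave 2 called in the contrast of 4 groups, beside 7.31% and 4.31% of all genes. Without the filter 2 met the criterion in Memantine against Glutamate (3.94% of all genes) and in Glutamate_secret against Control (8.62%), where Npas4 was added. With only the groups compared, 2 met it in Glutamate against Control (6.07% of all genes) and 0 in Memantine against Glutamate (1.63%). In Glutamate_BPC against Control 4 met it (17.9%).

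In Memantine against Glutamate the sign turned with the ribosomal RNA share as a covariate for Scg2 (-0.25), Inhba (1.20) and Homer1 (-0.053), with the block for Inhba (0.27) and Arc (0.16), and with both for Scg2 (-0.13), Inhba (1.18) and Vgf (-0.17). None of these members was called there. The causes were not tested.

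Leaving out 1 library at a time, members meeting the criterion ranged from 0 to 1 in Glutamate and in Memantine against Control and in each preparation against Glutamate, from 0 to 2 in Memantine against Glutamate, from 1 to 3 in each preparation against Control and from 0 to 3 in the F test. Members called in the contrast of 4 groups ranged from 0 to 3. The log2 fold change crossed 0 in Glutamate against Control for Scg2 (-0.55 to 0.16), Inhba (-1.84 to 1.61) and Homer1 (-0.85 to 0.13), and in Memantine against Glutamate for Scg2 (-0.15 to 0.54), Inhba (-1.06 to 0.94), Homer1 (-0.89 to 1.28), Arc (-1.09 to 0.28) and Vgf (-1.25 to 1.65). In the contrast of 4 groups it did so for Inhba (-0.94 to 0.52) and Arc (-0.037 to 0.79). Relative to neuron markers, Vgf in Glutamate minus Control ranged from 2.46 to 3.70 and Nptx2 from 2.09 to 2.86. Counts of list genes under the block and without Control 1 or Memantine 3 were added after seeing the data. Low counts limit Arc, Npas4, Nptx1, Inhba and Pcsk1, and 3 libraries per group with a common biological coefficient of variation of 0.595 limit all members.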
